A study of Mus musculus with 2 samples.

Results

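Alveolar macrophages, the resident phagocytes of the air spaces, were followed through a sort for EpCAM, an adhesion protein of epithelial cells. The study sorted EpCAM-positive lung cells of C57BL/6JRj mice aged 18 months (old) and 3 months (young), 24 h after 2.5 mg/kg lipopolysaccharide (LPS, a bacterial cell wall component that injures the lung) or saline (control). The groups were old LPS, old control, young LPS and young control, each with its own EpCAM-linked hashtag oligonucleotide. Equal numbers of cells from all 4 groups shared 1 droplet lane, and the whole experiment was done 2 times, which gave 8 libraries; the number after a group name is its lane. All lungs had been lavaged and digested with dispase before the sort, so the cells are those that the lavage left behind, and how many mice went into a library is not given in the sources used here. P-values therefore measure the spread between these libraries.

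A barcode counted as an alveolar macrophage when it had at least 500 detected genes, at most 20% mitochondrial transcripts, at least 1 unique molecular identifier (UMI, a counted transcript) in 3 or more of the 8 genes Chil3, Ear1, Ear2, Abcg1, Atp6v0d2, Marco, Mrc1 and Krt79, at least 5 UMIs over these genes, and under 5% of its UMIs from the surfactant gene Sftpc. This rule took 497 of the 11245 barcodes that passed the first pair of filters (4.42%), out of 14048 in all. They were 15 and 41 in old LPS 1 and 2, 41 and 312 in old control 1 and 2, 6 and 10 in young LPS 1 and 2, and 34 and 38 in young control 1 and 2. Old control 2 thus held 62.8% of them. Levels below are UMIs summed over the macrophages of a library and given as counts per 1e6 (CPM), and each library counts as 1 sample.

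Alveolar macrophages settle in the air spaces early in life and renew themselves there. They depend on GM-CSF and TGF-beta, which keep on the lipid-handling regulator PPAR-gamma, and their work is to take up and break down spent surfactant. They sense LPS through Toll-like receptors, and answer with NF-kappaB-driven cytokines and, through interferon, with a second wave of antiviral genes.

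The macrophages were chosen by these measured UMI counts, so the values of the 8 rule genes and Sftpc are given as a description. Detection percentages of control macrophages, here and below, pool 425 cells, 312 of them from old control 2, and so describe mostly that library. Chil3, a chitinase-like protein, was detected in 99.1% of these cells, Abcg1, a cholesterol exporter, in 98.4%, Ear2, an eosinophil-associated ribonuclease, in 97.6% and Mrc1, the mannose receptor, in 96.2%. Atp6v0d2, a subunit of the lysosomal proton pump, was detected in 91.1%, Ear1 in 81.4%, Krt79, a keratin, in 68.5% and Marco, a scavenger receptor, in 31.3%. Per library, Marco was at 278 and 271 CPM of all gene UMIs in old control, and 590 and 608 CPM in young control. Reads of the closely related Ear1 and Ear2 may have been split between them in counting. AE2 cells were filtered barcodes with 6 or more of 8 alveolar epithelial type II genes and fewer than 3 of the rule genes. Dendritic cells were non-macrophage filtered barcodes with 3 or more of 8 dendritic genes, at least 5 UMIs of these and Sftpc under 5%. In the 4131 AE2 cells of the controls the rule genes were detected in 0.0242% (Ear1) to 2.20% (Chil3), shares that the AE2 definition holds down. The median cell had 4516 UMIs among macrophages and 6340 UMIs among AE2 cells. The median macrophage held 7 of the 8 genes and 63 UMIs of them. Only 7 of the 497 had fewer than 10 such UMIs and 11 had exactly 3 of the genes; just outside the rule lay 6 barcodes with 3 genes but fewer than 5 UMIs and 29 with 5 UMIs in 2 genes. The highest Sftpc share in a macrophage was 0.519%.

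Many identity genes that the rule does not use also set the macrophages apart from AE2 and dendritic cells, though not all did. The dendritic percentages pool 203 control cells, 92 of them from old control 1. Car4, a carbonic anhydrase of alveolar macrophages, was detected in 60.2% of control macrophages, 0.218% of AE2 cells and 0.493% of dendritic cells. Fabp1, a fatty acid carrier, was found in 73.2%, 0.145% and 0.985%, and Ctsk, a cathepsin, in 68.5%, 0.581% and 0.493% of the same classes. Cidec, a lipid droplet protein, was found in 73.9% of macrophages and 0.0242% of AE2 cells. Siglecf, a lectin commonly used to gate these cells and named here after its values were seen, was detected in 46.1%, 0.0484% and 2.96%. Ptprc, the leukocyte surface protein CD45, was in 87.8% of macrophages, 1.28% of AE2 cells and 87.7% of dendritic cells. Other identity genes did not separate the classes. Csf2ra was in 38.4% of macrophages and 54.7% of dendritic cells, and Cd68 in 68.9% and 61.1%. Fabp5 was in 76.2% of macrophages and 96.7% of AE2 cells, and Lyz2 in at least 99.5% of each class. Markers of T cells, B cells, NK cells and red cells summed to at most 17.6 CPM in any library. RNA of AE2 cells was present at a low level: Sftpc stood at 873 to 1604 CPM of the summed macrophages after LPS and at 1173 to 1942 CPM in controls, while within AE2 cells it was 38110.0 to 64820.0 CPM after LPS and 211500 to 247600 CPM in controls. In 23 macrophages 6 or more of the 8 AE2 genes were detected. There was 1 such cell among the 10 of young LPS 2, where the AE2 markers summed to 9511 CPM, against 1481 to 3161 CPM in the other libraries. The 12 monocyte and interstitial macrophage markers summed to 881, 72.6, 935 and 23.1 CPM in old LPS 1, old LPS 2, young LPS 1 and young LPS 2, against 0 to 195 CPM in controls. In young LPS 1 and old LPS 1 most of these were Plac8, Ccr2 and Ly6c2, and Cd209f and Folr2 were at 0 in every library. The 10 neutrophil markers summed to 127 to 837 CPM after LPS and 66.5 to 99.9 CPM in controls. Of these, S100a8 alone exceeded 3 UMIs in an LPS library, S100a9 had at most 1 UMI in any library, and Retnlg, Ly6g, Camp and Ngp were at 0 in all 8. The part of such transcripts in the results below was measured by leaving out the 6 cells with 3 or more monocyte or neutrophil genes, and the 23 with AE2 genes.

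Macrophages were a smaller share of each LPS library than of any control, a difference that the adjusted test could not decide. Old LPS 1 and 2 held 0.862% and 2.48% of their filtered barcodes as macrophages, and young LPS 1 and 2 held 0.500% and 0.802%. The control shares were 2.77% and 20.4% in the old, and 3.35% and 2.75% in the young. The mean was 1.16% ± 0.896 after LPS and 7.31% ± 8.71 in controls (SD, n = 4 libraries each), a difference of -6.15 percentage points, and the share was lower after LPS in 4 of 4 pairs of a lane and age. The exact permutation test (two-sided) gave p = 0.0286, the smallest that 70 splits allow, and 0.0571 after adjustment over both share comparisons. Since both comparisons cannot reach the smallest p at once, the adjusted test could not pass 0.05 with these libraries. The control mean rests on old control 2: without it the difference was -1.80 points. Old libraries averaged 6.62% ± 9.20 and young ones 1.85% ± 1.41, with exact permutation p = 0.457 (adjusted 0.457).

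**Figure D1:**
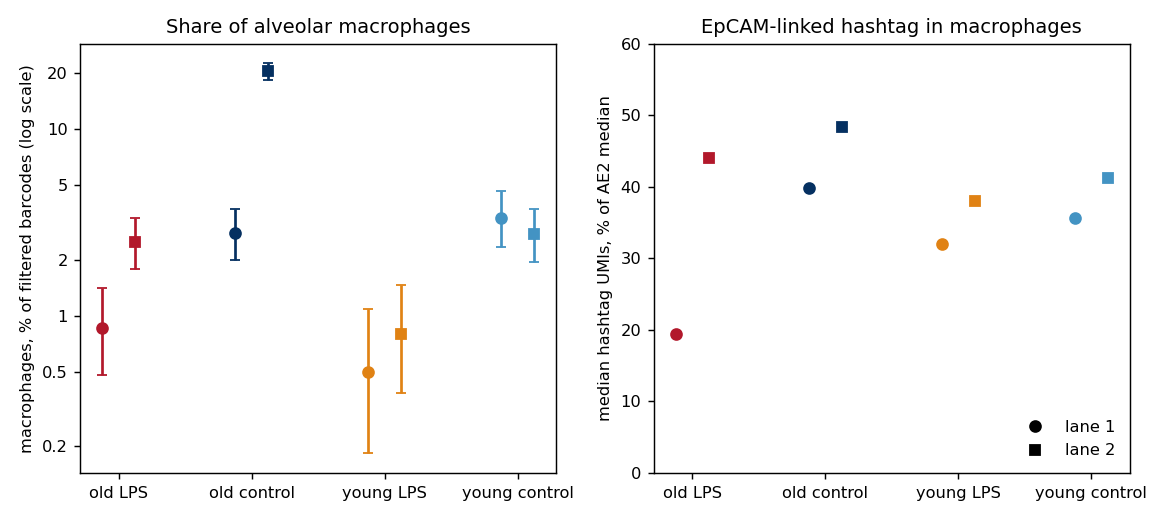
Left, alveolar macrophages as a percentage of filtered barcodes (log axis), 1 point per library with its exact 95% binomial interval, which covers counting error only. Right, the median count of EpCAM-linked hashtag UMIs in macrophages as a percentage of the AE2 median of the same library; LPS shares lie between 0.500% and 2.48% and control shares between 2.75% and 20.4%.

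Because the sort and the hashtag both act through an EpCAM antibody, EpCAM was read at both levels, a choice made after its values were seen. Hashtag UMIs of the median macrophage were 175 and 343 in old LPS, 569 and 566 in old control, 272.5 and 276.5 in young LPS, and 287 and 317.5 in young control. Relative to the AE2 median of the same library they were 19.5% and 44.0% in old LPS, 39.9% and 48.4% in old control, 32.0% and 38.0% in young LPS and 35.7% and 41.2% in young control. These ranges overlap between LPS and control, while both the hashtag median and its percentage of AE2 cells were lower after LPS in 4 of 4 pairs of a lane and age; this shift was not tested. The Epcam transcript was found in 57.4% of control macrophages, 70.9% of AE2 cells and 62.6% of dendritic cells. It stood at 10.8 and 73.5 CPM in old LPS and 48.8 and 82.7 CPM in young LPS, against 384 and 267 CPM in old control and 184 and 147 CPM in young control. All LPS libraries lay below all controls, with a log2 fold change of -1.85 (SE 0.33, edgeR adjusted p = 0.000309). In plain CPM, relative to all gene UMIs of a class, the means were 46.3 CPM after LPS and 226 CPM in controls in macrophages, and 338 and 214 CPM in AE2 cells. The macrophage change differed from that of AE2 cells by -2.44 on the log2 scale (SE 0.31, edgeR adjusted p = 3.67e-13). The lower Epcam transcript and hashtag moved with the lower share of macrophages in an EpCAM sort, and their part in that share was not tested.

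LPS changed a wide part of the macrophage transcriptome. Most tested genes of the lists for interferon response, class I antigen loading, chemokines and cytokines, NF-kappaB targets and iron and antimicrobial defence were called higher. Calls for CSF and TGF-beta signalling (6 of 14 tested) and the cell cycle (5 of 14) were all lower, as were 4 of the 5 eicosanoid calls and 7 of the 10 calls among identity genes. Of 3491 genes tested, 294 were called higher (8.42%) and 223 lower (6.39%) at an edgeR adjusted p under 0.05, 14.8% in all, and the median gene changed by -0.02 on the log2 scale. The LPS libraries summed 48150 to 289344 UMIs over 6 to 41 cells, and the controls 145799 to 1500045 UMIs over 34 to 312 cells. Without old control 2 the calls were 187 higher and 113 lower.

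**Figure D2:**
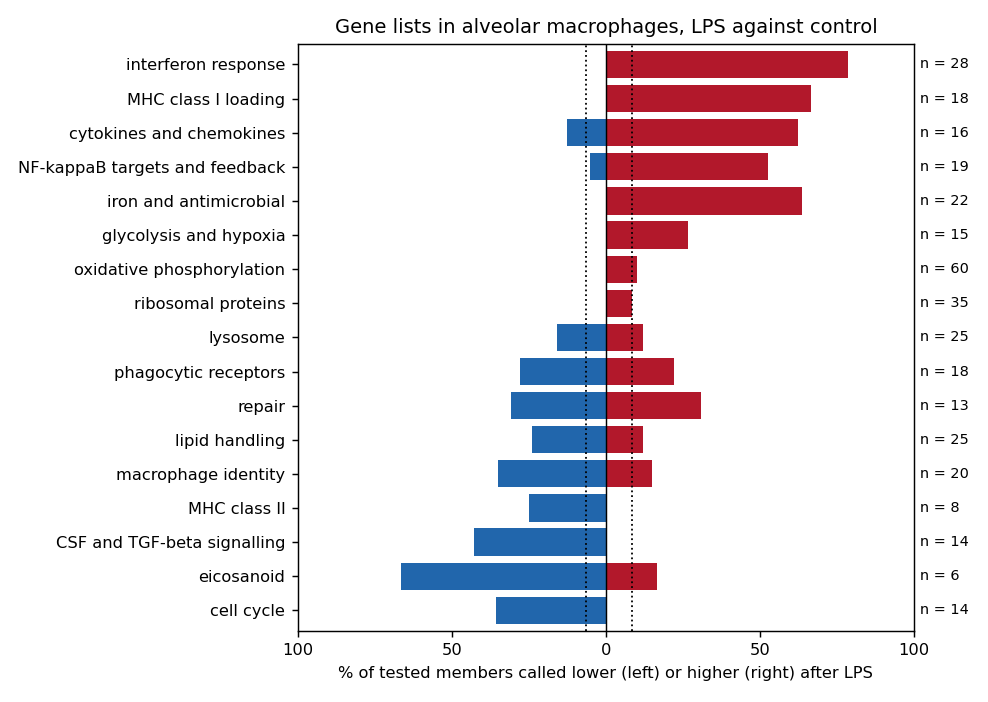
Percentage of the tested members of each gene list called higher (red, right) or lower (blue, left) in alveolar macrophages after LPS, with the number tested at the right. Dotted lines mark the share over all genes, 8.42% higher and 6.39% lower; 22 of 28 interferon genes were higher, and 4 of 6 eicosanoid genes lower.

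Interferon-induced genes were higher as a group. Of 52 listed, 28 had enough counts to be tested, 22 of these were higher and 0 lower, with a median log2 fold change of 3.81. Genes silent in controls could enter the test only through their LPS libraries, so the counts of tested members here and below hold for expressed members and not for the whole list. Gbp2, a guanylate-binding protein that attacks the compartments of intracellular microbes, stood at 236 and 267 CPM in old LPS and 1221 and 1172 CPM in young LPS, against 60.9 and 37.2 CPM in old control and 51.5 and 31.6 CPM in young control. Each LPS library was above each control, and old LPS below young LPS, with a log2 fold change of 3.74 (SE 0.23, edgeR adjusted p = 1.04e-10). Zbp1, a nucleic acid sensor, was higher by 3.94 (SE 0.43, edgeR adjusted p = 1.27e-06), and Bst2, the tetherin that holds back budding virus, by 2.38 (SE 0.26, edgeR adjusted p = 2.43e-06). Irf7, a master regulator of interferon genes, was detected in all LPS libraries, at 183 and 77.4 CPM in old LPS and 415 and 69.0 CPM in young LPS, against 0 CPM in both old controls and 0 and 5.26 CPM in young control (edgeR adjusted p = 5.73e-06). Gbp5 followed the same pattern, at 64.5 and 85.1 CPM in old LPS and 97.7 and 289.6 CPM in young LPS, against 0 to 6.09 CPM in controls (edgeR adjusted p = 5.21e-06). Rtp4, a chaperone-like gene induced by interferon, had 50.3 to 146 CPM after LPS and 0 to 2.86 CPM in controls (edgeR adjusted p = 0.000174).

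To show what these genes share in sequence, RefSeq promoter windows (GRCm38.p6, 250 bases before to 50 after the gene start) were searched on both strands for the core of the interferon-stimulated response element, GAAA and GAAA separated by any 2 bases. Of the 22 interferon genes that were higher, 17 had a window, and 12 of these held the motif (70.6%). It was in 3.49% of 27025 windows in all and 4.5% of the 2821 windows of tested genes. Among all genes called higher after LPS it was in 28 of 243 windows (11.5%), and among those called lower in 8 of 181 (4.42%). The 17 were picked from a list of interferon genes, so their share describes that list and tests nothing about the response. The windows of Irf7, Irf1, Ifi47, Oasl2 and Xaf1 did not hold these letters. A match is a description of the window and not a site. The windows of Gbp2 (chr3:142620413-142620712, plus strand), Gbp5 (chr3:142496684-142496983, plus strand) and Bst2 (chr8:71537423-71537722, minus strand) are shown 5′ to 3′ along the gene, with matches in capitals.
Gbp2: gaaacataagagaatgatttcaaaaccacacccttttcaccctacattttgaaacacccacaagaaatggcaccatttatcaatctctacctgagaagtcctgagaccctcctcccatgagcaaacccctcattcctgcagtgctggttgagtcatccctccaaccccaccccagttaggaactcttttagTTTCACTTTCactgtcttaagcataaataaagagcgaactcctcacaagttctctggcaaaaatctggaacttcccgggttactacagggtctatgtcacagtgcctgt
Gbp5: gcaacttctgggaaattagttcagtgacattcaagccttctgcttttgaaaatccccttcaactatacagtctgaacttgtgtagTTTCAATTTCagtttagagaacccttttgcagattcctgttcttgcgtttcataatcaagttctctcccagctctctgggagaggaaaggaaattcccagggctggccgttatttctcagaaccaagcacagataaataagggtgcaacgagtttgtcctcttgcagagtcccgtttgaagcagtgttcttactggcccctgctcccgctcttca
Bst2: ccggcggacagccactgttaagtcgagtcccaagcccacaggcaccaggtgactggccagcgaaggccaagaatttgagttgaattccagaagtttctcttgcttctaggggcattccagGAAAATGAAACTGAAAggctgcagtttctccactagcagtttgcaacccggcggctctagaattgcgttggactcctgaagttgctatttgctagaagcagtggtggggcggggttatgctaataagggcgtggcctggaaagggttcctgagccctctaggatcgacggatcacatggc
The matches begin 59 bases before the start in Gbp2 and 165 bases before it in Gbp5, both on the opposite strand. In Bst2 a pair of overlapping matches begins 130 and 124 bases before the start. A kappaB-like motif, GGG and TTTCC separated by any 2 bases and searched in the same way, was in 1 of the 17 windows (5.88%), that of Gbp5, and in 1.62% of all windows.

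Class I antigen loading rose with the interferon genes. Of 18 tested members (21 listed) 12 were higher and 0 lower, with a median of 1.08 on the log2 scale. Tapbp, which bridges class I chains and the peptide transporter, was at 376 and 395 CPM in old LPS and 781 and 827 CPM in young LPS, against 232 and 204 CPM in old control and 191 and 199.8 CPM in young control, a log2 fold change of 1.45 (SE 0.17, edgeR adjusted p = 2.43e-06). The proteasome activator Psme2 was higher by 1.88 (SE 0.24, edgeR adjusted p = 3.81e-06), the peptide transporter Tap1 by 1.94 (SE 0.29, edgeR adjusted p = 4.23e-05) and the class I chain H2-T22, whose reads may be shared with related chains, by 2.68 (SE 0.45, edgeR adjusted p = 0.000183). Class II genes did not follow: of 8 tested (13 listed) 0 were higher and 2 lower, one of them H2-DMa, the editor of class II peptides, at 233 ± 57.2 CPM after LPS and 454 ± 58.2 CPM in controls (SD, n = 4 each; log2 fold change -0.99, SE 0.20, edgeR adjusted p = 0.00135).

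Chemokines and cytokines were higher in 10 of 16 tested genes (40 listed) and lower in 2, with a median of 2.35. Cxcl2, which draws neutrophils, was at 2709 and 1590.0 CPM in old LPS and 1562 and 1600.0 CPM in young LPS, against 232 and 430.3 CPM in old control and 324 and 384 CPM in young control. The groups did not overlap, and its log2 fold change was 2.37 (SE 0.20, edgeR adjusted p = 2.62e-07). Ccl3, an attractant of monocytes and other leukocytes, was at 677 and 368 CPM in old LPS and 195 and 207 CPM in young LPS, against 85.3 and 88.6 CPM in old control and 29.4 and 42.1 CPM in young control (log2 fold change 2.47, SE 0.30, edgeR adjusted p = 2.43e-06). Ccl5, a T cell attractant, spread widely after LPS, at 1967, 514, 342 and 745 CPM in old LPS 1 and 2 and young LPS 1 and 2, against 3.57 to 10.5 CPM in controls. Its edgeR adjusted p was 0.0108, but the limma voom adjusted p was 0.13. The call was also lost without young control 1, young control 2, young LPS 2 or old control 2, at log2 fold changes of 6.59 to 7.13. The interleukin Il1b was higher after LPS by 2.26 (SE 0.29, edgeR adjusted p = 5.4e-06).

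NF-kappaB targets and feedback genes were higher in 10 of 19 tested genes (30 listed) and lower in 1, Nfkb1 itself, with a median of 1.42. Sod2, the mitochondrial superoxide dismutase, was at 2093 ± 590.5 CPM after LPS and 336 ± 49.7 CPM in controls (SD, n = 4 each; log2 fold change 2.65, SE 0.20, edgeR adjusted p = 2.3e-08). The inhibitors Nfkbia and Tnfaip3, which shut the pathway down, were higher by 1.42 (SE 0.18, edgeR adjusted p = 4.35e-06) and by 2.26 (SE 0.27, edgeR adjusted p = 1.98e-06). Ier3, a survival gene of the same pathway, was at 209 to 484 CPM after LPS and 29.4 to 61.5 CPM in controls.

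Iron and antimicrobial genes were higher in 14 of 22 tested genes (29 listed) and lower in 0, with a median of 0.90. Wfdc17, a secreted whey acidic protein of activated phagocytes, was at 4064 and 2410.0 CPM in old LPS and 3125 and 2634 CPM in young LPS, against 146 and 138 CPM in old control and 279 and 479 CPM in young control. Its lowest LPS library was above its highest control, with a log2 fold change of 3.70 (SE 0.19, edgeR adjusted p = 1.65e-10). Fth1, the ferritin heavy chain that stores iron, took 69070.0 ± 14350.0 CPM after LPS and 21570.0 ± 2331 CPM in controls (SD, n = 4 each; log2 fold change 1.68, SE 0.15, edgeR adjusted p = 1.38e-05). Cfb, complement factor B, was higher by 3.75 (SE 0.33, edgeR adjusted p = 2.3e-08) and Prdx5, a peroxidase, by 1.61 (SE 0.15, edgeR adjusted p = 6.12e-08). Hp, haptoglobin, was at 329 to 1393 CPM after LPS and 85.3 to 147 CPM in controls, and AE2 cells of the same libraries averaged 12560.0 and 1249 plain CPM, against 647 and 117 plain CPM in macrophages. Scaled by Sftpc, free AE2 RNA would amount to 47.2% of the macrophage Hp level after LPS, above the limit of 20% used as an alternative. That share rests on Sftpc alone. In young LPS 2, Sftpc was at 1604 and 53020 plain CPM in macrophages and AE2 cells, Sftpa1 at 3624 and 36010, and Hp at 1166 and 11540. In the remaining LPS libraries Sftpa1 was at 203 to 456 and 23980 to 39030 plain CPM. Shares scaled by other AE2 genes were not estimated. Without the 23 cells with AE2 genes the log2 fold change of Hp was 1.72 (edgeR adjusted p = 0.0014), against 2.40 with them (edgeR adjusted p = 1.28e-07). Acod1, which makes itaconate and was chosen after its values were seen, stood at 226 and 92.8 CPM in old LPS and 122 and 289.6 CPM in young LPS, against 0 to 15.8 CPM in controls (log2 fold change 4.78, SE 0.52, edgeR adjusted p = 7.37e-07).

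A further set of genes was close to silent in control macrophages. Serpina3f, a protease inhibitor, was at 75.2 and 50.3 CPM in old LPS and 195 and 138 CPM in young LPS, with 0 UMIs in all 4 controls (edgeR adjusted p = 6.38e-05). With the UMIs of the LPS libraries pooled, and a floor of 3 UMIs over the pooled controls, Serpina3f was at least 48.0-fold higher. Serpina3f and the genes bounded below need not reach their pooled bound in each library. Serpina3g, a near copy of Serpina3f that may share reads with it, was at 366 and 104 CPM in old LPS and 879 and 510.2 CPM in young LPS, against 0 to 12.2 CPM in controls (edgeR adjusted p = 0.00509). Cyp26b1, which breaks down retinoic acid, was at 258 and 15.5 CPM in old LPS and 293 and 96.5 CPM in young LPS, with 0 UMIs in controls (edgeR adjusted p = 0.0233). By the same pooled bound it was at least 59.4-fold higher. Its call was lost with limma voom (limma voom adjusted p = 0.188). The call was also lost without young control 1, young control 2, young LPS 2 or old control 2, at log2 fold changes of 7.18 to 8.85. Sphk1, the sphingosine kinase, was at 24.4 to 96.5 CPM after LPS with 0 UMIs in controls (edgeR adjusted p = 0.00495), at least 30.3-fold higher by the pooled bound.

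**Figure D3:**
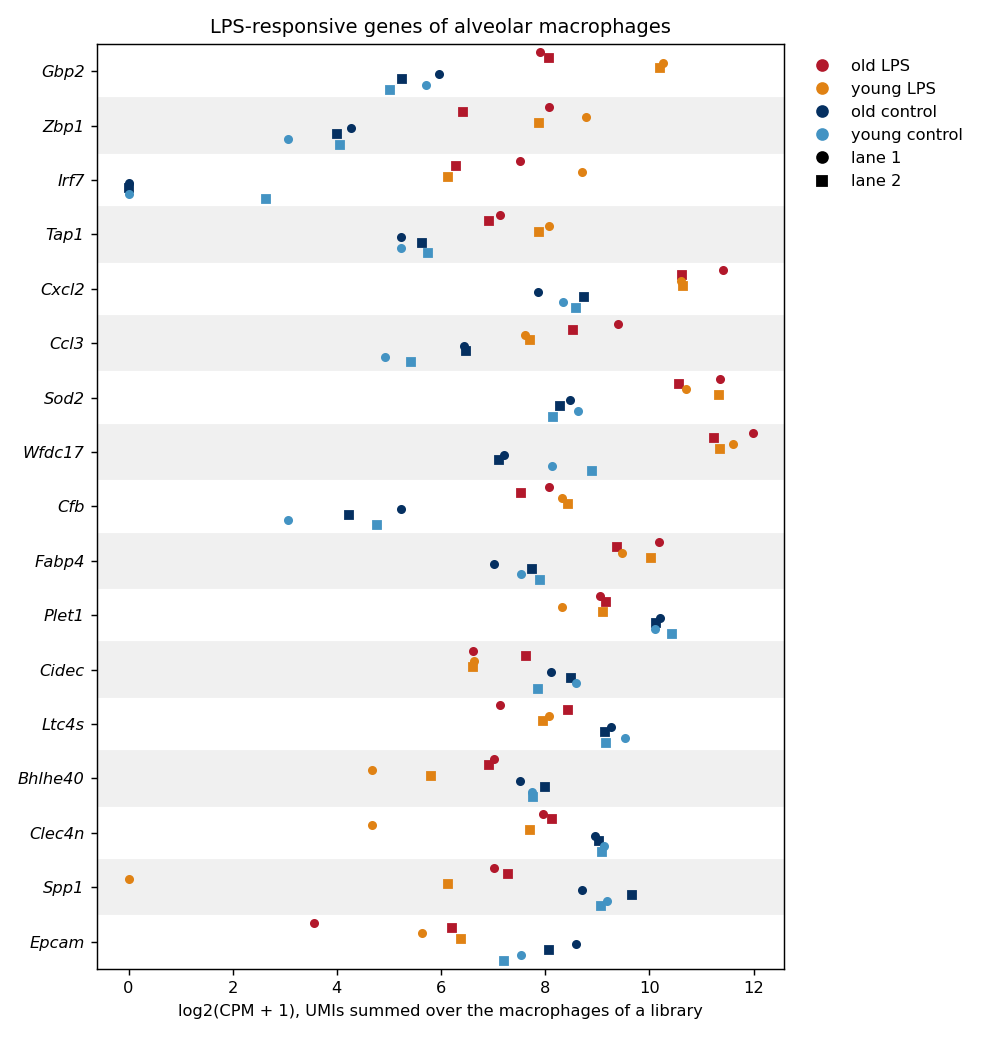
Level of 17 genes in each library on the log2(CPM + 1) scale, LPS libraries above controls within each row and lanes by symbol. For Gbp2 to Fabp4 every LPS library lies right of every control; for Plet1 to Epcam every LPS library lies left of them.

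Identity genes were called in both directions, more of them lower. Of the 20 identity genes outside the rule, all tested, 3 were higher and 7 lower, with a median of -0.17. The shares over all genes were 8.42% higher and 6.39% lower. Fabp4, a fatty acid carrier, was at 1161 and 662 CPM in old LPS and 708 and 1048 CPM in young LPS, against 128 and 214 CPM in old control and 184 and 237 CPM in young control, a log2 fold change of 2.17 (SE 0.22, edgeR adjusted p = 3.67e-07). Car4 was at 3247 and 1660.0 CPM in old LPS and 1221 and 1724 CPM in young LPS, against 433 and 581 CPM in old control and 566 and 909.8 CPM in young control (log2 fold change 1.61, SE 0.25, edgeR adjusted p = 0.00199, and 0.072 without young LPS 2). Plet1, a membrane protein, fell to 527 and 572 CPM in old LPS and 317 and 552 CPM in young LPS, against 1182 and 1121 CPM in old control and 1096 and 1388 CPM in young control (log2 fold change -1.25, SE 0.17, edgeR adjusted p = 8.02e-06). Siglecf was at 55.9 ± 24.4 CPM after LPS and 163 ± 52.2 CPM in controls (SD, n = 4 each; edgeR adjusted p = 0.00277, and 0.0645 without old control 2). Among the rule genes, given without a test, Abcg1 was at 366 and 774 CPM in old LPS and 415 and 469 CPM in young LPS, against 1371 and 1623 CPM in old control and 1485 and 1499 CPM in young control. Ear1 and Ear2 were also below every control in each LPS library, at 73.2 to 615 CPM and 408 to 1126 CPM, against 625 to 810.5 CPM and 1183 to 1419 CPM in controls. Chil3, Atp6v0d2, Marco, Mrc1 and Krt79 overlapped between the groups; Marco ranged from 333 to 2710.0 CPM after LPS and from 290.2 to 673 CPM in controls. Of all genes tested, 10.2% had every LPS library above every control and 9.4% had every LPS library below.

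Of 25 tested members of lipid handling (29 listed) 3 were higher and 6 lower, with a median of -0.24. Over all genes 8.42% were higher and 6.39% lower, so the higher count was near that share. Plin2, the lipid droplet coat, was at 1581 ± 124 CPM after LPS and 908 ± 131 CPM in controls (SD, n = 4 each; log2 fold change 0.79, SE 0.14, edgeR adjusted p = 0.000308). Cidec fell to 122 ± 50.2 CPM, against 312 ± 71.3 CPM in controls (log2 fold change -1.32, SE 0.27, edgeR adjusted p = 0.00142), and Lipa, the lysosomal acid lipase, to 228 ± 95.8 CPM, against 436 ± 30.1 CPM in controls (log2 fold change -1.08, SE 0.22, edgeR adjusted p = 0.0012).

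Most tested eicosanoid genes were lower. Of 6 tested eicosanoid genes (14 listed) 4 were lower and 1 higher, with a median of -1.06. Ltc4s, the leukotriene C4 synthase, was at 139.8 and 344 CPM in old LPS and 268 and 248 CPM in young LPS, against 609 and 565 CPM in old control and 743 and 573 CPM in young control (log2 fold change -1.24, SE 0.22, edgeR adjusted p = 0.000258). Alox5ap, which hands arachidonate to 5-lipoxygenase, was lower, with a log2 fold change of -0.87 (SE 0.16, edgeR adjusted p = 0.000557). The member that was higher was the prostaglandin E synthase Ptges, at 42.5 to 129 CPM after LPS and 0 to 10.5 CPM in controls (log2 fold change 3.85, SE 0.90, edgeR adjusted p = 0.00419).

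Of 14 tested genes of CSF and TGF-beta signalling (22 listed) 0 were higher and 6 lower, with a median of -0.25. Bhlhe40, a regulator of alveolar macrophage renewal, was at 129 and 119.9 CPM in old LPS and 24.4 and 55.2 CPM in young LPS, against 183 and 255 CPM in old control and 213 and 216 CPM in young control (log2 fold change -1.59, SE 0.29, edgeR adjusted p = 0.000424). Tgfb1, the cytokine itself, was lower, with a log2 fold change of -1.15 (SE 0.24, edgeR adjusted p = 0.00142), and the transcription factor Cebpa by -1.30 (SE 0.31, edgeR adjusted p = 0.00498). Phagocytic receptors moved both ways, with 4 higher and 5 lower of 18 tested (27 listed). The lectin Clec4n fell to 247 and 278 CPM in old LPS and 24.4 and 207 CPM in young LPS, against 494 to 559 CPM in controls (log2 fold change -1.47, SE 0.24, edgeR adjusted p = 9.91e-05). Fcer1g, the signalling chain of Fc receptors, was higher by 0.79 (SE 0.14, edgeR adjusted p = 0.000334). Itgam, the integrin CD11b that monocytes also carry, was at 27.6 to 195 CPM after LPS and 0 to 31.6 CPM in controls (log2 fold change 4.53, SE 0.80, edgeR adjusted p = 0.000295), and its log2 fold change was 4.01 without the cells with monocyte or neutrophil genes.

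Of 13 tested repair genes (25 listed) 4 were higher and 4 lower. Spp1, osteopontin, was at 129 and 155 CPM in old LPS and 0 and 69.0 CPM in young LPS, against 414 and 809 CPM in old control and 581 and 536 CPM in young control (log2 fold change -2.90, SE 0.33, edgeR adjusted p = 5.73e-06). Pros1, a bridge to dying cells, was lower, with a log2 fold change of -1.76 (SE 0.33, edgeR adjusted p = 0.000433), and the matrix protease Mmp14 was higher by 3.21 (SE 0.50, edgeR adjusted p = 5.6e-05). Lysosomal genes had 3 higher and 4 lower of 25 tested (30 listed), the higher count being near the 8.42% over all genes. The cathepsin Ctsz was higher by 1.00 (SE 0.14, edgeR adjusted p = 1.43e-05) and Ctsb by 0.69 (SE 0.16, edgeR adjusted p = 0.00337). The membrane protein Laptm5 was lower, with a log2 fold change of -0.79 (SE 0.14, edgeR adjusted p = 0.000337). Among genes of glycolysis 4 of 15 tested (24 listed) were higher and 0 lower, led by Pgam1 at 303 to 732 CPM after LPS and 146 to 197 CPM in controls (log2 fold change 1.44, SE 0.28, edgeR adjusted p = 0.00237). Nuclear genes of oxidative phosphorylation had 6 higher and 0 lower of 60 tested, and ribosomal proteins 3 higher and 0 lower of 35 tested (36 listed), shares near the background of all genes.

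Among the other genes called lower were Clec1b, a C-type lectin, at 0 to 7.74 CPM after LPS and 36.8 to 117 CPM in controls (edgeR adjusted p = 9.95e-05), and Tppp3, a microtubule protein, at 7.74 to 48.8 CPM after LPS and 139.7 to 231 CPM in controls (log2 fold change -3.19, SE 0.41, edgeR adjusted p = 5.73e-06).

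Some of the macrophages carried transcripts of dividing cells. Of 14 tested cell cycle genes (22 listed) 5 were lower after LPS and 0 higher, with a median of -0.87. Birc5, survivin, was at 0 CPM in 3 LPS libraries and 54.2 CPM in old LPS 2, against 94.7 to 213 CPM in controls (log2 fold change -5.09, SE 1.05, edgeR adjusted p = 0.00425). It missed the threshold, at a log2 fold change as large, without the cells that carried monocyte or neutrophil genes (-4.93, edgeR adjusted p = 0.0848) and under the stricter rule of 4 genes and 10 UMIs (-4.94, edgeR adjusted p = 0.0632). Mki67, the proliferation marker Ki-67, was at 48.8 to 116 CPM after LPS and 146 to 302 CPM in controls (log2 fold change -1.12, SE 0.29, edgeR adjusted p = 0.00985). Its call was lost under 5 alternatives, with adjusted p of 0.0525 without young control 1, 0.0696 with limma voom, 0.0799 without the cells with monocyte or neutrophil genes, 0.0944 under the stricter rule and 0.104 without the cells with AE2 genes. After thinning each cell to 2000 UMIs, 3 or more of 10 mitotic genes were detected in 4 of 70 macrophages after LPS (5.71%) and in 40 of 416 in controls (9.62%), with 2 and 9 shallower cells left out. Without thinning the shares were 8.33% and 10.8%. The thinned shares of the libraries overlapped, at 0 to 10.0% after LPS and 5.26% to 15.2% in controls.

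The macrophage response was then set against that of AE2 cells of the same libraries. The LPS response of macrophages minus that of AE2 cells was called positive for 232 (1.96%) and negative for 346 (2.92%) of 11831 genes (4.89% in all). Among class I genes 0 differences were positive and 12 negative of 18 tested, with a median of -1.23, and among phagocytic receptors 7 were positive and 0 negative of 18, with a median of 0.95. Genes of endoplasmic reticulum stress had 0 positive and 8 negative of 16, and mitochondrially encoded genes 10 positive and 0 negative of 11. Over all genes the median difference was -0.13. Levels set beside AE2 cells are plain CPM. Wfdc17 was at 2587 CPM after LPS and 239 CPM in controls in macrophages, and 2.41 and 6.19 CPM in AE2 cells (difference in log2 fold change 5.02, SE 0.27, edgeR adjusted p = 3.78e-73). Sdc4, a heparan sulfate proteoglycan, was at 339.9 CPM after LPS and 4.71 CPM in controls in macrophages, while AE2 cells held 558 and 524 CPM (difference 5.53, SE 0.33, edgeR adjusted p = 5.49e-59). Fabp4 differed by 2.09 (SE 0.40, edgeR adjusted p = 1.49e-05) and Mmp14 by 3.37 (SE 0.53, edgeR adjusted p = 2.32e-08).

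Several defence genes changed by a smaller ratio in macrophages, from a higher control level. Saa3, serum amyloid A3, was at 553 CPM after LPS and 99.9 CPM in controls in macrophages, and at 9737 and 76.6 CPM in AE2 cells (difference -4.41, SE 0.20, edgeR adjusted p = 7.61e-68, and 0.0644 under the stricter rule). Free AE2 RNA, scaled by Sftpc alone, would amount to 42.7% of the Saa3 level in macrophages after LPS. Its LPS call within macrophages (log2 fold change 2.57, SE 0.28, edgeR adjusted p = 6.65e-06) was lost under the stricter rule (0.296), without cells of mixed hashtags (0.103) and without the cells with monocyte or neutrophil genes (0.209). Slpi, the leukocyte protease inhibitor, was at 969 and 583 CPM in macrophages and 1945 and 128 CPM in AE2 cells (difference -3.12, SE 0.16, edgeR adjusted p = 1.4e-81). Cxcl2 was at 1577 and 315 CPM in macrophages and 951 and 21.4 CPM in AE2 cells (difference -3.02, SE 0.18, edgeR adjusted p = 9.39e-46). Fth1 differed by -2.05 (SE 0.10, edgeR adjusted p = 2.38e-94), Cyba, a subunit of the NADPH oxidase, by -2.21 (SE 0.14, edgeR adjusted p = 6.46e-53), and Gbp2 by -2.55 (SE 0.35, edgeR adjusted p = 7.21e-11). H2afz, a histone variant, was at 1095 CPM after LPS and 1494 CPM in controls in macrophages and 1921 and 402 CPM in AE2 cells (difference -2.59, SE 0.15, edgeR adjusted p = 8.76e-61). Plet1 went opposite ways, lower after LPS in macrophages and at 64.8 CPM after LPS and 12.9 CPM in controls in AE2 cells (difference -3.58, SE 0.21, edgeR adjusted p = 3.95e-63). The Sftpc level of macrophages was 2.00% to 3.03% of that of AE2 cells after LPS and 0.474% to 0.856% in controls.

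**Figure D4:**
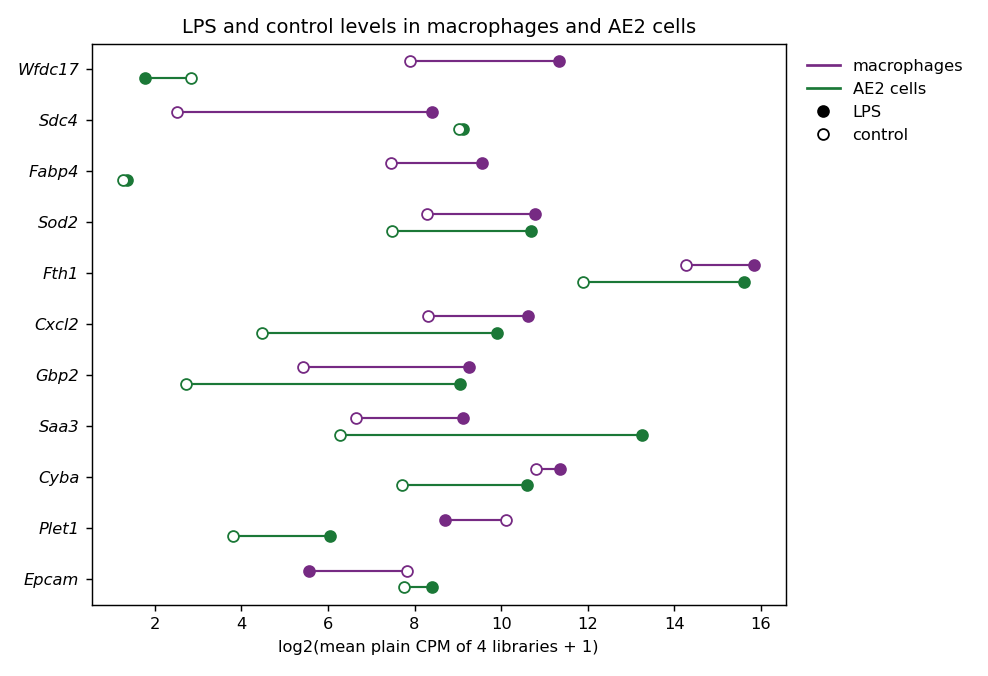
Mean level over 4 LPS libraries (filled) and 4 control libraries (open) for 11 genes, macrophages above AE2 cells in each row, on the log2(plain CPM + 1) scale. Sdc4 differs between LPS and control in macrophages and little in AE2 cells, and Saa3 and Cxcl2 have the wider gap in AE2 cells. Wfdc17, Plet1 and Epcam run in opposite directions, with Wfdc17 low in AE2 cells of both treatments.

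Dendritic cells of the same sort (203 in controls) differed from macrophages in antigen presentation genes. In controls 1121 of 3920 genes were called higher and 1040 lower in macrophages than in dendritic cells (55.1%), a count that the choice of both classes by their transcripts bears on and from which nothing is read. Of the 8 class II genes tested 1 was higher and 7 lower in macrophages: H2-DMa was at 417 plain CPM in macrophages and 1474 in dendritic cells. Tap1 was at 40.1 and 199.9 CPM. Ccl5 was at 5.55 and 3.33 CPM in old control and 6.86 and 9.50 CPM in young control in macrophages, against 42.9 and 945 CPM in old control and 631 and 5.44 CPM in young control in dendritic cells, so that young control 2 ran the other way. Fth1 was at 19820.0 CPM in macrophages and 4242 CPM in dendritic cells, Prdx5 at 628 and 131 CPM, Ltc4s at 573 and 13.7 CPM, and Plet1 at 1100.0 and 44.8 CPM.

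Few differences between old and young macrophages passed the test. In controls 1 of 3491 genes (0.0286%) was called, Il1b, the precursor of interleukin-1 beta. It was at 213 and 269.5 CPM in old control, against 22.1 and 47.3 CPM in young control, and at 1183 and 677 CPM in old LPS, against 293 and 193 CPM in young LPS. Both old libraries were above both young ones in each treatment. The log2 fold change of old over young control was 2.76 (SE 0.40, edgeR adjusted p = 0.00189), and the call was lost without old control 2 (2.52, adjusted p 0.283), under the stricter rule (2.45, adjusted p 0.75) and with limma voom (2.70, adjusted p 0.0776). At an unadjusted p under 0.05 there were 139 of 3491 genes, fewer than chance alone would give at that threshold. With 1 gene called in all, counts of called members per list tell nothing. The medians of the pathway lists ran from -0.37 for mitochondrially encoded genes to 0.69 for the 4 tested senescence genes. They were 0.39 for interferon response and for class II, 0.38 for immediate early and heat shock genes and -0.14 for identity genes.

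The LPS response differed with age in 3 of 3491 genes (0.0859%), with 1 positive (0.0286%) and 2 negative (0.0573%). Ccl6, a chemokine that these cells make in the resting state, was at 3064 and 3849 CPM in old LPS and 1025 and 1214 CPM in young LPS, against 3071 and 4041 CPM in old control and 3919 and 4880.0 CPM in young control. It was thus at the control level in old LPS and low in young LPS, with a difference of the log2 fold changes of 1.92 (SE 0.27, edgeR adjusted p = 0.000754). Cxcl9, an interferon-gamma-induced T cell attractant, was at 32.2 and 101 CPM in old LPS and 684 and 1158 CPM in young LPS, against 6.09 and 18.6 CPM in old control and 0 CPM in both young controls (edgeR adjusted p = 0.00518). It missed the threshold with limma voom (difference -6.00, limma voom adjusted p = 0.15). It also missed it without young control 2 (difference -8.97) and without old control 2 (difference -6.50). The third gene, Slc34a2, is an AE2 phosphate transporter, at 676 CPM in young LPS 2 and 53.8 to 171 CPM in the other LPS libraries, against 57.9 to 92.9 CPM in controls. Without the 23 cells with AE2 genes its difference was -0.67 (edgeR adjusted p = 0.978), against -3.49 with them (edgeR adjusted p = 0.016). That call was also lost with limma voom (limma voom adjusted p = 0.368) and under the stricter rule (edgeR adjusted p = 0.802). With mitochondrial UMIs at most 10% it was lost too (edgeR adjusted p = 0.873). It was lost as well without old control 1, old control 2, young control 2 or young LPS 2, at differences of -3.425 to -1.929.

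**Figure D5:**
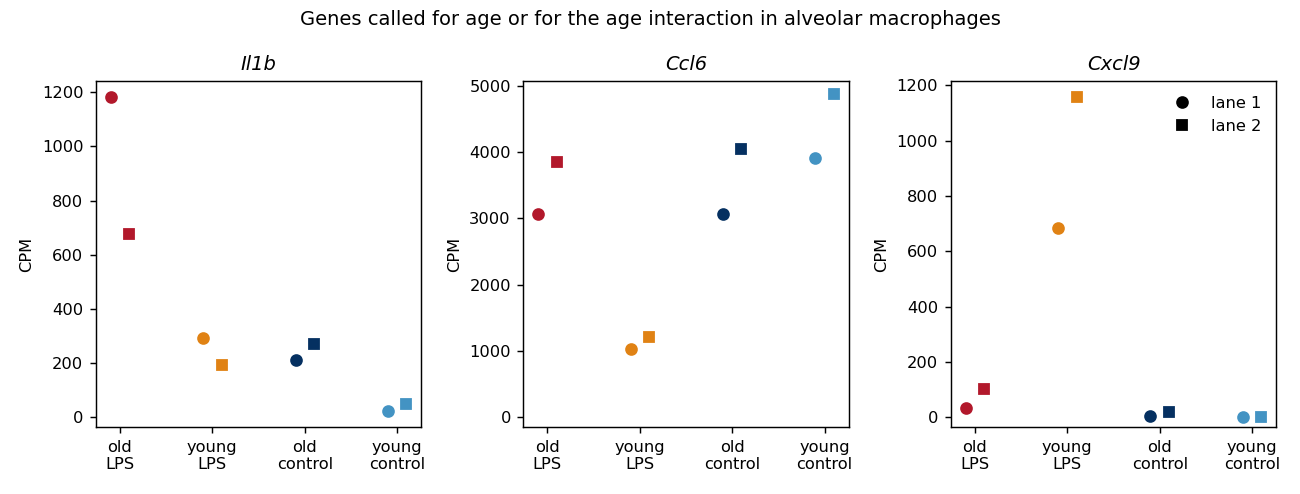
Level of Il1b, Ccl6 and Cxcl9 in macrophages of each library (CPM), by group and lane. Il1b is at 213 and 269.5 CPM in old control against 22.1 and 47.3 CPM in young control; Ccl6 is low in young LPS alone, and Cxcl9 is high in young LPS.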

How the data were processed

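EpCAM-sorted lung cells were profiled by droplet 3′ RNA sequencing in 2 lanes, each a repeat of the whole experiment. The authors deposited 1 table per group and lane, with genes and 4 hashtags against barcodes and unnormalized UMI counts as values; per the submitters' processing notes the tools were bcl2fastq, STAR, Cell Ranger 3.1.0, Seurat 3.1 and 3.1.5 and R 3.6.3, with mm10. Each hashtag assignment was taken as deposited. The 8 tables hold 85889264 UMIs (6228266 to 15435789 each), of which macrophages hold 2574107; 2803 barcodes failed the filters. No barcode was shared within a lane, 2 were shared between lanes, and none of these was a macrophage. No doublet caller was run; 7 macrophages had under 90% of hashtag UMIs in their leading hashtag. Median UMIs per macrophage were 5835 to 8989 after LPS and 3788 to 5437 in controls.

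UMIs were summed per library and tested with edgeR 4.0.16 (robust quasi-likelihood, TMM, filterByExpr, 4 groups in 1 fit, 4 residual degrees of freedom, Benjamini-Hochberg threshold 0.05, R 4.3.3). Macrophage CPM are TMM-scaled and relative to the UMIs of the tested genes; Sftpc, marker sums, AE2 and dendritic levels and the macrophage levels set beside them are plain CPM, relative to all gene UMIs of that class and library. The AE2 part of a macrophage level was estimated as the AE2 level times the Sftpc ratio of macrophages to AE2 cells. SE was obtained as the log2 fold change divided by √F. The comparisons with AE2 and dendritic cells had the library as a block. Shares were tested with an exact permutation test (scipy 1.17.1), with exact 95% binomial intervals that cover counting error only. Cells are not replicates. The script was tested on simulated data. DESeq2 1.42.0 and limma 3.58.1 were alternatives.

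Same-numbered libraries share a lane, and so pair by the labels; deviations from group means over 1791 genes correlated between -0.113 and 0.18 across the group pairs. Members and gene lists were chosen with earlier results of these data known. Genes named are the rule genes, those with the largest changes called in both lanes at 50 CPM or more, those with the smallest p in the interaction and AE2 comparisons, and up to 4 called members of each list; not all are printed.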

Additional observations from a re-analysis of the deposited data

Results flagged for a closer look

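Of 152 groups of 4 libraries examined, 19 held 1 library set apart from the other 3, where chance alone gives about 1 in 20. A library was set apart when its gap to the nearest of the other 3 was most of the range of all 4. The gap is relative, so some of these differences are small, as for Ear2 in young control 2. The share of macrophages was the clearest for the study: old control 2 stood at 20.4%, against 2.75% to 3.35% in the other controls. Among the LPS libraries, old LPS 2 stood apart with 197 CPM of Cidec, 54.2 CPM of Birc5 and 7.74 CPM of Clec1b, young LPS 2 with 289.6 CPM of Gbp5, and old LPS 1 with 2709 CPM of Cxcl2. Among the controls, old control 2 stood apart with 504.6 CPM of Krt79, 230.2 CPM of Nfkbia, 2.86 CPM of Rtp4 and 61.5 CPM of Ier3. Old control 1 did so with 140.2 CPM of Bst2, 707 CPM of Ctsb, 2572 CPM of Fcer1g and 12.2 CPM of Serpina3g. Young control 2 did so with 1183 CPM of Ear2, 5.26 CPM of Irf7, 84.2 CPM of Tnfaip3 and 31.6 CPM of Itgam. Young control 1 did so with 125 CPM of Pros1. Some of these values rest on few UMIs: 1 for Irf7 in young control 2 and 2 for Clec1b in old LPS 2. Serpina3g in old control 1 had 2 UMIs, and Rtp4 in old control 2 had 4.

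The LPS response differed between old and young macrophages, by the interaction test, in Ccl6 (1.92 on the log2 scale), Cxcl9 (-8.92, a fitted value and no bound, since young controls had 0 UMIs) and Slc34a2 (-3.49).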

How the results depend on the processing

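Leaving out 1 library at a time gave 300 to 625 genes for LPS against control (517 with all), 0 to 11 for old against young controls (1 with all), 1 to 17 for the age difference of the LPS response (3 with all) and 349 to 533 for macrophages minus AE2 cells (578 with all); the lowest counts of the first, second and last came without old control 2, and the last was 374 without young control 2. Share differences ranged from -7.67 to -1.80 points for LPS and from 0.19 to 6.69 points for age, and both kept their sign. No setting allowed an adjusted p under 0.05 for a share, so nothing is read from its absence. The count for old against young controls was 2 with DESeq2, 4 with limma voom, 10 with no filter on low counts and 9 with libraries of at least 10 macrophages; it was 15 with libraries of at least 30, chosen after seeing the data. The age difference had 9 genes with no filter, 17 with libraries of at least 10 macrophages, and 1 where free AE2 RNA could supply at most 20% of the level. Macrophages minus AE2 cells had 1179 genes with limma voom (845 positive, 334 negative). LPS against control had 557 without the filter (250 higher, 307 lower) and 412 with DESeq2. In sets of cells chosen after seeing the data it had 379 without the cells with AE2 genes and 528 without those with monocyte or neutrophil genes. These counts come from unlike numbers of tested genes. Within macrophages these were 3491 with all libraries, 3801 to 4590 with 1 left out and 13366 without the filter. Requiring at least 10 macrophages left out young LPS 1 alone and so repeats that fit. The replicate block by lane gave 489 (286 higher, 203 lower) and changed no other count; the block gave the LPS share an exact p of 0.125, the smallest that 4 pairs allow. Of 143 named results past the threshold, 115 stayed past it under every alternative and 28 missed it at least once. Slc34a2 reversed for LPS, at -0.36 without the cells with AE2 genes. The cause of these shifts was not tested. LPS libraries of 6 to 15 macrophages limit what could be detected.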
